A study of Hordeum vulgare with 18 samples.

Results

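The libraries compared here came from barley (Hordeum vulgare) plants harvested in spring, on 22 March and 12 April, and in the autumn before, on 9 and 16 November. A library counts as spring when its title carries replicate number 3 or 4 and as autumn when it carries 1 or 2, and 16 of the 18 libraries of the series entered the comparison, 7 from spring and 9 from autumn. The aerial tissue was sequenced from 3 genotypes, each grown at low nitrate (LN, 0.5 mM) and high nitrate (HN, 5 mM). GP is Golden Promise, a spring-type barley, and M4 and M5 are winter-type Moroccan barleys, and the labels give 1 set of light, temperature and day length for every plant. At LN there were 4 spring and 4 autumn libraries, and at HN 3 and 5. By genotype there were 2 against 2 in GP, 3 against 3 in M4 and 2 against 4 in M5. The libraries titled GP_HN_1 and GP_LN_1 were left out because they hold reads of other genotypes. Each library stood for leaves of 1 or 2 plants, and nothing in the labels says which plants shared a tray.

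Season stands here for everything that differed between the harvests. The labels give 1 planting date, 26 October of that autumn, for all 4 harvests, which puts the harvests 14, 21, 147 and 168 days after planting, whereas the study's methods give 14 days for every plant. Season, sowing or sequencing batch and labelled plant age therefore cannot be told apart. M4_HN_4 is HN by its title and 0.5 mM by its treatment label, and it was kept as HN. Because the tissue is bulk, fewer cells of a type and less RNA per cell cannot be told apart in any value below.

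Barley seedlings read season mainly through day length and temperature, the cues that also set flowering time, and winter types additionally need a cold period before they flower. Under a set day length and temperature neither cue need follow the calendar. Nitrate supply is a strong signal in itself: it changes the expression of nitrate transporters, of transcription factors and of genes for carbon and amino acid metabolism, and a shortage of it brings leaf senescence forward, in which chloroplast protein is broken down and its nitrogen exported.

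The spring libraries were on average the shallower ones. Reads assigned to genes ranged from 12.1 to 21.6 M (mega) reads (median 16.6) in spring and from 11.8 to 22.3 M reads (median 20.4) in autumn, with M5_LN_2 the shallowest autumn library. Of 10 library measures, the one with the lowest p was the share of reads that mapped outside annotated genes, at 5.05% to 5.38% (median 5.12%) in spring against 5.30% to 5.92% (median 5.48%) in autumn. With the season labels permuted within the 6 genotype-by-nitrate groups, the block-adjusted difference of -0.317 percentage points had an exact two-sided permutation p of 0.00617, with 0.00309 the smallest p that the 324 arrangements allow, and an adjusted p of 0.0617 over the 10 measures. The block-adjusted difference, spring minus autumn, was -3.93 M reads on genes (exact permutation p = 0.0309, adjusted p = 0.0772) and -335 genes with a read (exact permutation p = 0.0309, adjusted p = 0.0772), and no measure passed the adjusted threshold. Of the genes nearly confined to 1 genotype (above 5 CPM, a gene's count per mega-read assigned to genes, in its own libraries and under 0.05 CPM in the others; 16 to 28 genes depending on the library scored), at most 1 was above 1 CPM in any fitted library of another genotype. In M5_LN_1, with 1 of 18 above 1 CPM, the M4 genes summed to 6.44% of their level in M4.

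Libraries of 1 genotype and nitrate level overlapped in their distances across and within seasons. For each of the 14 such pairs the median absolute difference in log2 CPM over genes was taken. It was 0.19 to 0.39 (median 0.23) for the 10 pairs of a spring and an autumn library, 0.35 for the only pair of 2 spring libraries, M4_LN_3 and M4_LN_4, and 0.22 to 0.24 for the 3 pairs of autumn libraries. The pair farthest apart, M4_LN_3 and M4_LN_1, had 11.4% of genes more than 1 log2 unit apart. The closest pair, GP_HN_4 and GP_HN_2, was also a spring and autumn pair, with 3.83% of genes that far apart, and the 3 autumn pairs had 4.04% to 6.09%. In the 4 groups that also had a pair of 1 season, the spring and autumn pairs were farther apart than that pair in 5 of 8 cases by the median and in 7 of 8 by the share of genes over 1 log2 unit, a count that was not tested. Both pairs with a difference of 0.35 or more contained M4_LN_3, so that library stood apart from its group. No 2 libraries of a group agreed within counting noise. Libraries of different groups did not deviate from their group means more alike within a season than between seasons: across genes, the median correlation of the deviations was -0.03 over 53 pairs of libraries of the same season and 0.00798 over 53 pairs of different seasons. Deviations within a group sum to 0, so those of a group of 2 libraries mirror each other. Each library also enters many pairs, so the pairs are not independent observations.

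**Figure D1:**
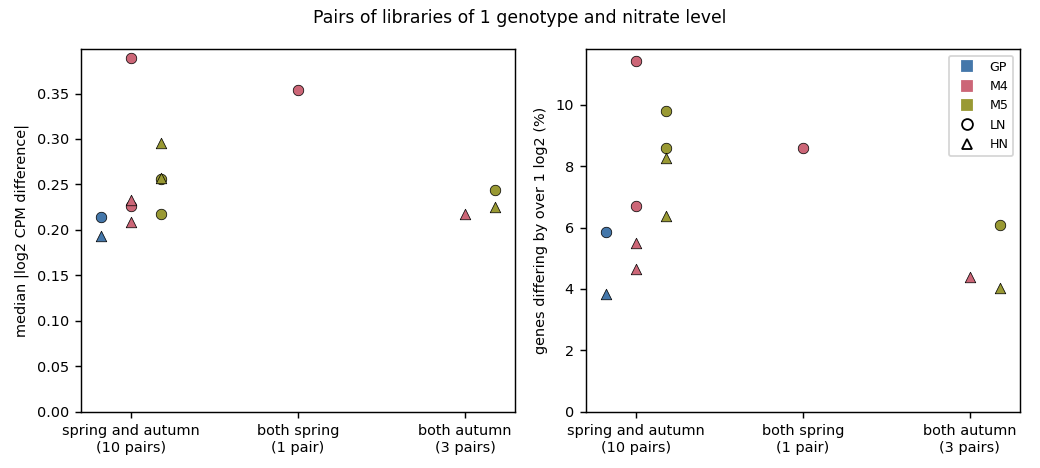
Distance between 2 libraries of the same genotype and nitrate level: the median absolute log2 CPM difference over 18952 genes (left) and the percentage of genes more than 1 log2 unit apart (right), with 1 point per pair, colour for genotype and circles for LN, triangles for HN. The 10 spring and autumn pairs run from 0.19 to 0.39 on the left and overlap the 3 autumn pairs at 0.22 to 0.24.

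No transcript passed the test of spring against autumn across genotypes. The test was edgeR's quasi-likelihood test with the 6 genotype-by-nitrate groups as a block, applied to 18952 genes, of which 0 (0%) had a Benjamini-Hochberg adjusted p under 0.05. An unadjusted p under 0.05 was reached by 908 genes (4.79%), 594 of them higher in spring and 314 lower, and the lowest adjusted p was 0.151. That count was 492 without the 12 April harvest and 1387 without M5_LN_3. edgeR's likelihood ratio test called 7 genes, DESeq2 8 and limma-voom 1, all higher in spring. These were 8 genes in all, of which 7 were called by both the likelihood ratio test and DESeq2, with fitted log2 fold changes of 0.69 to 2.21 and mean levels of 2.82 to 61.5 CPM. Spring was higher in all 10 within-group pairs for 5 of the 8. HORVU0Hr1G000760, the limma-voom call, and HORVU6Hr1G092630, at 61.5 CPM, rested on M4 only, so not all 8 were common to the genotypes. Leaving out M4_LN_3 gave 1 call and leaving out any other library or harvest gave 0. Adding the 4 replicate numbers, which follow the harvest days, as terms (a replicate block) also gave 0 calls.

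The fit's intervals describe the difference between these spring and autumn libraries. The fit treats libraries as independent and has no term for harvest day. With so few harvest days per season, the intervals do not bound a difference between seasons in general. The 95% interval of the fitted log2 fold change lay within 1 log2 unit of 0, that is within 2-fold either way, for 17189 genes (90.7%), and within 1.5-fold for 13282 genes (70.1%). Its median half-width was 0.30 log2 units. Precision followed expression: the interval lay within 2-fold for 99.2% of the 1815 genes above 100 CPM, for 97.8% of the 9143 genes at 10 to 100 CPM, and for 80.6% of the 7994 genes at or below 10 CPM. Among the genes above 100 CPM the fitted difference had a median absolute size of 0.06 log2 units and exceeded 1 log2 unit in 0 genes. Over all genes the median log2 fold change was -0.00603. The fitted difference exceeded 1 log2 unit in 66 genes, 43 higher and 23 lower in spring, 53 of which averaged under 5 CPM. In 15 of the 66 a single library held over 50% of the summed CPM.

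**Figure D2:**
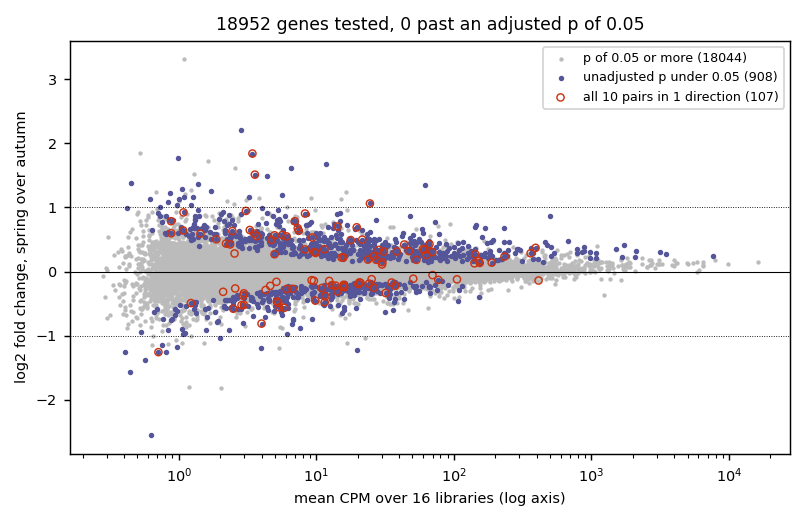
Fitted log2 fold change of spring over autumn against mean CPM over the 16 libraries (log axis), with 1 point per gene; blue marks an unadjusted p under 0.05 (908 genes) and red rings mark the 107 genes for which all 10 within-group pairs pointed 1 way. Differences narrow around 0 as expression increases, and the dotted lines at 1 log2 unit are crossed by 66 genes, mostly of low level.

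The lowest p of all genes belonged to HORVU5Hr1G069960, which the files do not pair with a name. It was chosen, like the 3 genes after it, once its values were known. It had 8.25 CPM in GP_LN_3, 9.95 in GP_HN_4, 5.90 in M4_LN_3, 8.03 in M4_LN_4, 12.7 in M4_HN_4, 14.1 in M5_LN_3 and 16.9 in M5_HN_3. In the autumn libraries it lay between 4.66 and 8.81 CPM (median 5.67). The seasons were separate in GP and in M5, while in M4 the spring library M4_LN_3 fell among the autumn values. Its fitted log2 fold change was 0.91 (SE 0.13, 95% interval 0.63 to 1.18), with spring higher in all 10 within-group pairs, an unadjusted p of 7.94e-06 and an adjusted p of 0.151 by edgeR's quasi-likelihood test. The term was similar in the genotypes, at 0.82 in GP, 0.84 in M4 and 1.04 in M5. It passed an adjusted p of 0.05 in the likelihood ratio test, in DESeq2, without a low-count filter, with additive genotype and nitrogen terms and without M4_LN_3, and it missed it with limma-voom.

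HORVU0Hr1G000760 was next by p among genes higher in spring, and only M4 contributed to it. In M4 it had 39.2 CPM in M4_LN_3, 37.7 in M4_LN_4 and 62.8 in M4_HN_4, against 12.5 in M4_LN_1, 14.1 in M4_HN_1 and 22.1 in M4_HN_2. All 3 spring values of M4 were above all 3 autumn values. In GP and M5 it lay between 0 and 0.0575 CPM in both seasons, so its fitted log2 fold change of 1.68 (95% interval 1.15 to 2.21, edgeR adjusted p = 0.310) describes M4 only. It passed the adjusted threshold in the likelihood ratio test, DESeq2 and limma-voom.

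Among genes lower in spring, HORVU5Hr1G098410 had the lowest p. It had 9.13 and 9.89 CPM in the GP spring libraries against 11.3 and 12.8 CPM in the GP autumn libraries. In M4 it had 6.06, 7.38 and 11.4 CPM in spring against 11.5, 12.0 and 14.1 CPM in autumn. In M5 it had 10.9 and 11.6 CPM in spring against 13.3, 13.6, 14.4 and 14.6 CPM in autumn. Every spring library was thus below every autumn library of its genotype, although M4_LN_4 and M4_HN_1 were almost level. The fitted log2 fold change was -0.48 (95% interval -0.73 to -0.23) with an unadjusted p of 0.00117 and an adjusted p of 0.99995 by edgeR's quasi-likelihood test. HORVU3Hr1G083990, at 0.664 to 1.61 CPM (median 0.975) in spring and 1.04 to 2.87 CPM (median 2.04) in autumn, was separate in M4 and M5 but not in GP (log2 fold change -0.92, 95% interval -1.45 to -0.38, edgeR adjusted p = 0.99995).

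**Figure D3:**
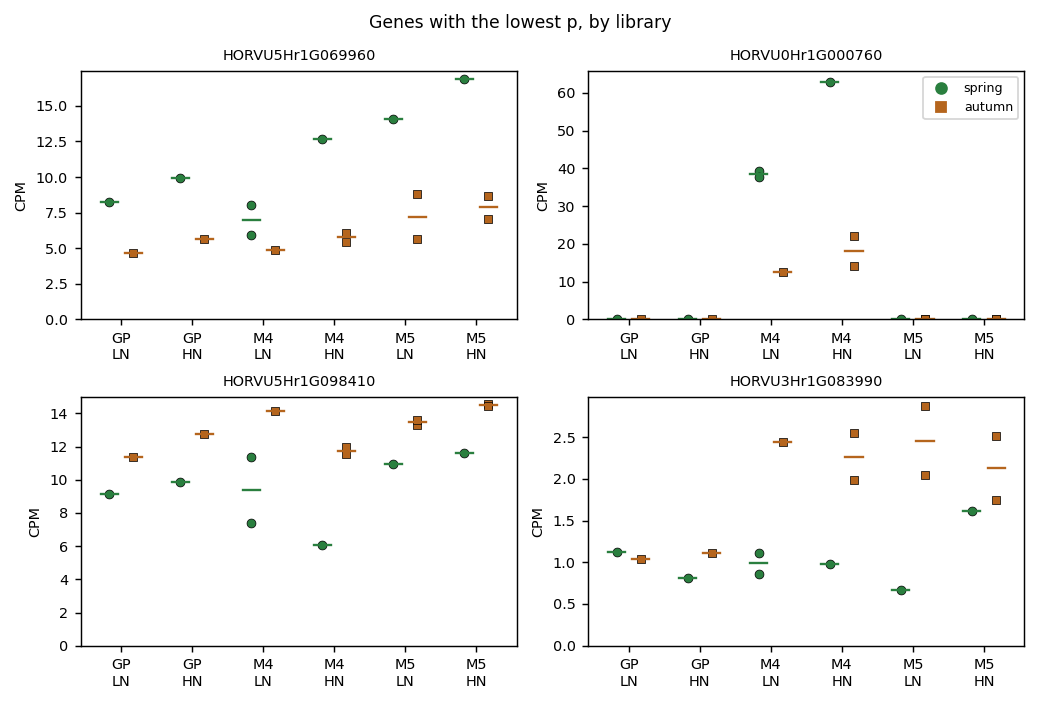
CPM by library for the 2 genes higher and the 2 genes lower in spring with the lowest p, in the 6 genotype-by-nitrate groups on the x axis; green circles are spring libraries, brown squares autumn libraries, and short lines group means. HORVU5Hr1G069960 is higher in spring in each group, HORVU0Hr1G000760 is at or under 0.0575 CPM outside M4, and HORVU5Hr1G098410 is lower in spring in each group.

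Transcripts that moved the same way in all 3 genotypes were counted directly. A gene was to be called shifted in all 3 genotypes when it passed the season test, had 1 sign in GP, M4 and M5 and pointed the same way in all 10 within-group pairs, and 0 genes met this. With the likelihood ratio test 4 genes met it, all higher in spring. Without the test, all 10 pairs were higher in spring for 61 genes (0.322%) and lower for 46 genes (0.243%). Of the 324 arrangements of the season labels within groups, 1 puts all 10 pairs higher in spring and 1 lower, a fraction of 0.00309 each. Both counts were near or under that fraction, so their number is no evidence of a common shift. The 61 had fitted log2 fold changes of 0.11 to 1.84 (median 0.42) and the 46 of -1.26 to -0.06 (median -0.25), so most of these one-way differences were well under 2-fold. These sets were picked for their direction, which is therefore no evidence of it. Without M4_HN_4, with 8 pairs left, the counts were 122 and 131, without M4_LN_3, with 9 pairs, 178 and 77, and without M5_LN_3, with 8 pairs, 371 and 320. Fewer libraries allow fewer arrangements, so the fraction of 0.00309 does not apply to these leave-out counts. They were not set against a fraction of their own, and nothing is concluded from them. Every spring library of each genotype lay above every autumn library of the same genotype for 13 genes (0.0686%) and below for 11 (0.058%), with fitted log2 fold changes of at most 0.79 in size. These counts were not set against a chance rate. Ignoring genotype, 1 gene was higher in all 7 spring libraries than in all 9 autumn libraries and 1 was lower. None of the 107 genes with all 10 pairs in 1 direction was among the 47 genes annotated below, which says little when so few genes are in the set.

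Taken by genotype, no season term gave a call: by edgeR's quasi-likelihood test 0 genes (0%) passed in GP, 0 genes (0%) in M4 and 0 genes (0%) in M5. In M4, with 3 libraries against 3, 1521 genes (8.03%) had an unadjusted p under 0.05, 773 higher and 748 lower in spring, and the lowest adjusted p was 0.612. In GP the number was 384 (2.03%, 224 higher and 160 lower) and in M5 it was 2.6% of genes (264 higher and 229 lower). With the other tools GP had 4 calls by the likelihood ratio test, 2 by DESeq2 and 0 by limma-voom. M4 had 16 by the likelihood ratio test, 11 by DESeq2 and 1 by limma-voom, and M5 had 1, 4 and 0 by these 3 tools. Complete separation of the seasons was reached by 3143 genes above and 3801 below in GP (16.6% and 20.1%), by 1454 and 1600 in M4 (7.67% and 8.44%), and by 863 and 806 in M5 (4.55% and 4.25%); few libraries make separation easy, most of all in GP. The test of whether the season term differed between genotypes called 0 genes (0%), with 675 (3.56%) at an unadjusted p under 0.05, 2 called by the likelihood ratio test, 1 by DESeq2 and 0 by limma-voom, so no gene can be named as particular to a genotype.

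These counts by genotype changed when single libraries were left out. Without M5_HN_3 the M5 term, then M5_LN_3 against M5_LN_1 and M5_LN_2, called 106 genes, 104 of them lower in spring, and the genotype difference called 30, with the lone spring library assumed to vary like the other groups. Without GP_HN_2 or without GP_HN_4 the GP term, then 1 library against 1, called 30 genes and the genotype difference 7, with the spread taken from the other groups. Without M4_HN_4 the M4 term called 1 gene, and without M5_LN_1 the M5 term and the genotype difference called 1 each. The counts at an unadjusted p under 0.05 moved too. In GP the count was 624 without GP_HN_2, 619 without GP_HN_4, 215 without GP_LN_2 and 218 without GP_LN_3. In M4 it was 976 without M4_HN_1, 481 without M4_LN_1 and 2497 without M4_LN_4, and in M5 it was 1479 without M5_HN_3, 823 without M5_LN_2 and 1527 without M5_LN_3. For the genotype difference it was 375 without M4_HN_1, 1036 without M4_HN_2, 235 without M4_LN_1, 1283 without M4_LN_4, 1349 without M5_HN_3 and 1297 without M5_LN_3.

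Split by nitrate, spring against autumn called 0 genes (0%) at LN and 0 (0%) at HN by edgeR's quasi-likelihood test. At LN 1211 genes (6.39%) had an unadjusted p under 0.05, 573 higher and 638 lower in spring. At HN there were 1226 (6.47%), with 842 higher and 384 lower. The difference of the season term between LN and HN called 0 genes (0%), with 1566 (8.26%) at an unadjusted p under 0.05 and a lowest adjusted p of 0.285. The likelihood ratio test called 33 genes at LN, 15 at HN and 58 for the difference, DESeq2 53, 11 and 58, and limma-voom 2, 0 and 0. Without M4_HN_4 the difference called 5 genes by the quasi-likelihood test, and with that library as LN it called 4. Without M5_HN_3 the counts at an unadjusted p under 0.05 were 502 at HN and 685 for the difference.

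Harvests of the same season gave no called genes by the quasi-likelihood test either. Only M4 at LN had libraries of both spring days, so the spring comparison had 1 direct pair, M4_LN_3 and M4_LN_4. Its other information came through the autumn libraries. The autumn comparison had 3 direct pairs. The 0 calls between the spring harvests therefore say little about how alike those harvests were. The 12 April harvest against that of 22 March called 0 genes (0%) by edgeR's quasi-likelihood test, with 376 (1.98%) at an unadjusted p under 0.05, 3 called by the likelihood ratio test and 0 by DESeq2 and by limma-voom. The 16 November harvest against that of 9 November called 0 genes (0%), with 1288 (6.8%) at an unadjusted p under 0.05, 8 called by the likelihood ratio test, 41 by DESeq2 and 0 by limma-voom.

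The study annotates 47 genes of these tables by name, most of them chosen for their response to nitrate in these same samples, and all 47 could be tested for season. None passed, and 1 had an unadjusted p under 0.05 against 4.79% of all genes. In the fit 29 were higher in spring and 18 lower, beside 9127 higher and 9825 lower over all genes. Their median log2 fold change was 0.08, beside -0.00603 over all genes. The 95% interval was within 2-fold for 36 of the 47, beside 17189 of all 18952 genes (90.7%), and for the rest a larger difference was not resolved. The lowest adjusted p among the 47 was 0.99995 by edgeR's quasi-likelihood test. None of the 47 had all 10 pairs in 1 direction, beside 107 of all 18952 genes, a share at which 47 genes would be likely to hold none.

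**Figure D4:**
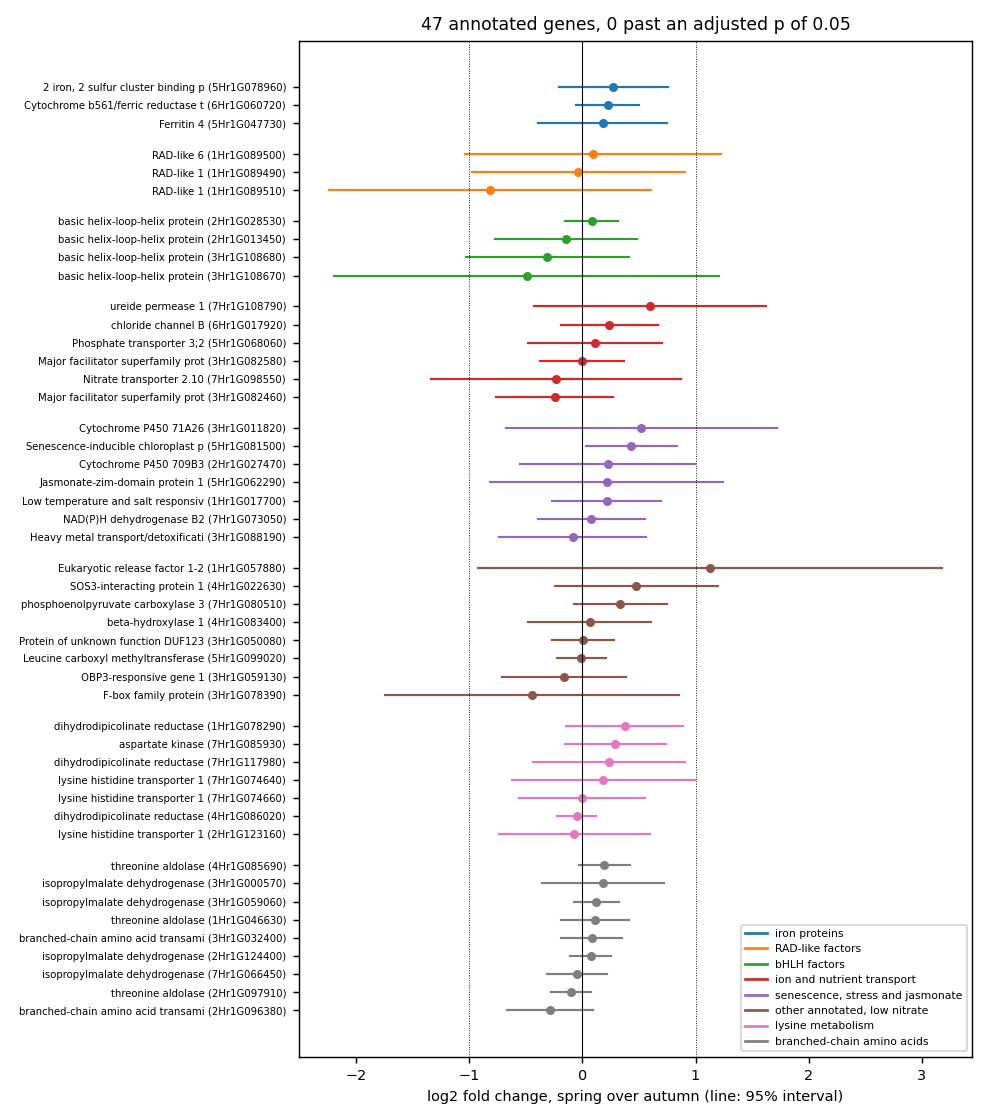
Fitted log2 fold change of spring over autumn (points) with 95% intervals (lines) for the 47 annotated genes, grouped and coloured by role, each labelled with its product and shortened identifier. The intervals of 46 genes include 0, and that of the Senescence-inducible chloroplast protein begins at 0.03.

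The 3 iron proteins are on the study's list of genes higher under LN. Ferritin stores iron in plastids in a form that cannot react with oxygen, and Ferritin 4 (HORVU5Hr1G047730) had 150 and 33.6 CPM in the GP spring libraries (LN, HN) against 62.2 and 29.9 CPM in the GP autumn libraries. In M4 it had 233 and 296 CPM at LN and 129 at HN in spring, against 126 at LN and 101 and 118 at HN in autumn, so that the spring values lay above the autumn values. In M5 it was the other way about, with 63.0 CPM at LN and 28.6 at HN in spring against 155 and 92.5 at LN and 33.9 and 51.5 at HN in autumn. The season term was 0.73 in GP, 0.66 in M4 and -0.78 in M5, a difference between genotypes with an unadjusted p of 0.00868 and an adjusted p of 1 (edgeR), and 0.18 on average (95% interval -0.39 to 0.75). The Cytochrome b561/ferric reductase transmembrane protein (HORVU6Hr1G060720), of a family that moves electrons across membranes, had 53.6 to 123 CPM (median 91.9) in spring and 25.0 to 106 CPM (median 84.8) in autumn, with a log2 fold change of 0.22 (-0.05 to 0.50). In the fit across genotypes all 3 genes of the group were higher in spring, beside 9127 of all 18952 genes, with a median of 0.22 and 0 past the test. The third, a 2 iron, 2 sulfur cluster binding protein (HORVU5Hr1G078960), had a term of -0.20 in M5.

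The transcription factors gave no called difference between the seasons. The basic helix-loop-helix (bHLH) protein HORVU3Hr1G108680 belongs to a large family of DNA-binding factors that act as dimers. It had 13.6 CPM in GP_LN_3 and 105 in GP_HN_4 in spring, against 19.0 in GP_LN_2 and 312 in GP_HN_2 in autumn. In M5 it had 5.56 CPM at LN and 141 at HN in spring, against 2.36 and 2.77 at LN and 150 and 94.97 at HN in autumn. In both of these genotypes HN was above LN in either season, whereas in M4 it stayed between 0.667 and 5.87 CPM throughout. Its season term was -0.31 (95% interval -1.03 to 0.41). A second bHLH protein, HORVU2Hr1G028530, had 23.0 to 62.5 CPM (median 32.6) in spring and 20.6 to 58.7 CPM (median 31.1) in autumn (log2 fold change 0.08, -0.15 to 0.32). The RAD-like genes encode small proteins with a MYB-type domain. RAD-like 6 (HORVU1Hr1G089500) lay between 0.0558 and 8.70 CPM in spring and between 0.514 and 11.02 CPM in autumn, and RAD-like 1 (HORVU1Hr1G089490) between 0.502 and 8.94 CPM in spring and between 0.721 and 12.5 CPM in autumn. The interval of RAD-like 6, -1.04 to 1.22 log2 units, reached past 2-fold, and that of RAD-like 1, -0.98 to 0.90 log2 units, lay only just within it. Libraries of 1 group differed widely: the 2 spring libraries of M4 at LN had 0.0558 and 5.67 CPM of RAD-like 6. The 4 bHLH genes had a median log2 fold change of -0.23 (1 higher, 3 lower) and the 3 RAD-like genes of -0.04 (1 higher, 2 lower), with 0 past the test.

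Of the transport genes, the nitrate transporter HvNRT2.10 (HORVU7Hr1G098550), named for the high-affinity nitrate transporter family, was singled out after its values were seen. At LN it had 5.69 CPM in GP_LN_3, 35.9 in M4_LN_3, 8.98 in M4_LN_4 and 5.19 in M5_LN_3 in spring, against 20.2 in GP_LN_2, 21.6 in M4_LN_1, 33.8 in M5_LN_1 and 47.6 in M5_LN_2 in autumn. Spring was lower at LN in GP and M5, while in M4 the spring libraries fell on both sides of the autumn one. At HN it had 3.74, 3.69 and 8.39 CPM in spring against 1.97 to 3.54 CPM in autumn, and there all 3 spring libraries were higher. The season term was -1.54 at LN and 0.89 at HN, and the difference between them was -2.42 with an unadjusted p of 0.0104 and an adjusted p of 0.538 (edgeR). A Major facilitator superfamily protein (HORVU3Hr1G082580), of a broad class of membrane carriers, had 10.99 to 84.1 CPM (median 21.3) in spring and 8.30 to 152 CPM (median 15.8) in autumn, and chloride channel B (HORVU6Hr1G017920), of a family of anion channels and exchangers, had 15.1 to 44.2 CPM (median 36.5) in spring and 11.3 to 56.8 CPM (median 35.1) in autumn. Their log2 fold changes were -0.00326 (-0.37 to 0.36) and 0.24 (-0.19 to 0.67), and over the 6 transport genes the median was 0.05, with 3 higher and 3 lower.

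The senescence, stress and jasmonate group held the only annotated gene with an unadjusted p under 0.05. The Senescence-inducible chloroplast protein (HORVU5Hr1G081500) belongs to a family that takes part in chlorophyll breakdown. It had 43.7 and 13.1 CPM in the GP spring libraries (LN, HN) against 16.0 and 10.8 CPM in the GP autumn libraries. In M4 it had 39.1, 33.3 and 21.0 CPM in spring against 27.2, 17.2 and 14.1 CPM in autumn, and in M5 11.7 at LN and 20.8 at HN in spring against 18.2 and 19.2 at LN and 11.5 and 13.1 at HN in autumn. Spring was thus higher within every group but M5 at LN. Its season term was 0.43 (95% interval 0.03 to 0.83), with spring higher in 8 of 10 pairs, an unadjusted p of 0.0372 and an adjusted p of 0.99995 (edgeR). Jasmonate-zim-domain protein 1 (HORVU5Hr1G062290), a repressor of jasmonate signalling that jasmonate itself induces, was also singled out afterwards. At LN it had 33.6, 70.7, 37.3 and 6.94 CPM in GP_LN_3, M4_LN_3, M4_LN_4 and M5_LN_3 in spring, against 34.9, 74.3, 54.9 and 38.6 CPM in GP_LN_2, M4_LN_1, M5_LN_1 and M5_LN_2 in autumn. At HN it had 18.5, 11.6 and 38.1 CPM in spring against 5.18 to 12.1 CPM in autumn. The season term was -1.03 at LN and 1.33 at HN, a difference of -2.36 with an unadjusted p of 0.00687 and an adjusted p of 0.529 (edgeR).

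The other members named in that group overlapped between the seasons. The Low temperature and salt responsive protein (HORVU1Hr1G017700), from a family of small membrane proteins induced by cold and salt, had 32.7 to 118 CPM (median 67.2) in spring and 27.2 to 98.5 CPM (median 50.5) in autumn, with a log2 fold change of 0.21 (-0.27 to 0.69). NAD(P)H dehydrogenase B2 (HORVU7Hr1G073050), an alternative mitochondrial dehydrogenase, had 22.8 to 64.1 CPM (median 30.0) in spring and 17.2 to 68.4 CPM (median 24.5) in autumn, with 0.08 (-0.40 to 0.55). Of the 7 genes 6 were higher in spring in the fit, beside 9127 of all 18952 genes, with a median of 0.21.

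**Figure D5:**
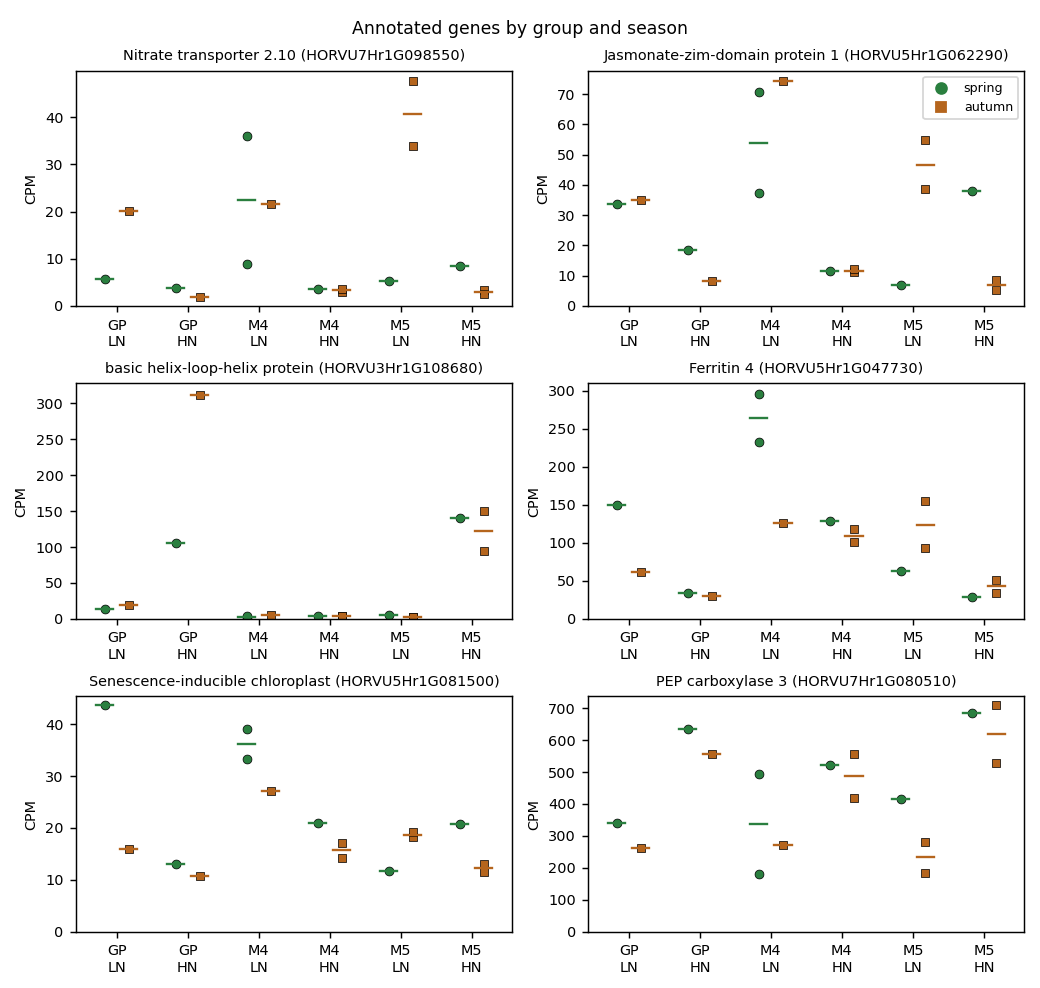
CPM by library for 6 annotated genes in the 6 genotype-by-nitrate groups; green circles are spring libraries, brown squares autumn libraries, and short lines group means. The bHLH protein is higher at HN than at LN in GP and M5 in both seasons. HvNRT2.10 at LN has 5.69 CPM (GP) and 5.19 CPM (M5) in spring and 20.2 to 47.6 CPM in those genotypes in autumn.

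LN and HN were also compared within each season for the genes listed by the study as higher (16) or lower (15) under LN. The study chose these lists on the same samples, so their direction is not independent evidence. All 16 were higher at LN than at HN in GP in spring and in autumn, in M4 in spring, and in M5 in autumn, and 14 of 16 were in M4 in autumn. In M5 in spring only 6 of 16 were. The median log2 ratio of LN over HN, with 1 CPM added to each mean, was -0.62 in M5 in spring, against 1.15 in M5 in autumn, while in GP it was 1.12 in spring against 1.38 in autumn and in M4 1.13 in spring against 0.84 in autumn. The 6 genes that kept the LN direction in M5 were the 3 iron proteins and the 3 RAD-like genes, which are the members that the study listed for GP and M5. The 10 others were listed for GP and M4, so the split follows how the list was made, on fits that held these M5 libraries, and is no contrast between gene roles. These 10, which were lower at LN than at HN in spring and higher in autumn, were all 7 senescence, stress and jasmonate genes, HvNRT2.10, Phosphate transporter 3;2 and Eukaryotic release factor 1-2, with log2 ratios of -2.30 to -0.45 in spring against 0.46 to 3.37 in autumn. The 15 genes of the other list were lower at LN in both seasons in GP and in M5, 15 of 15 each time. All 15 had been listed for GP and M5, so their direction in M5 was largely fixed by that choice. In M4, 8 of 15 were higher at LN in spring and 10 of 15 in autumn. The spring ratios in M5 rest on 1 library per nitrate level, M5_LN_3 and M5_HN_3, and have no replicate. Those in GP set GP_LN_3 of 22 March against GP_HN_4 of 12 April, so nitrate and harvest day cannot be told apart there. In M4 the spring HN side is M4_HN_4 alone, of 12 April and labelled 0.5 mM, against LN libraries of both spring days.

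Over the 47 genes, 6 had an unadjusted p under 0.05 for the difference of the season term between LN and HN, against 8.26% of all genes, and none of them passed after adjustment (edgeR). They were HvNRT2.10, Jasmonate-zim-domain protein 1, the ferric reductase, NAD(P)H dehydrogenase B2, lysine histidine transporter 1 (HORVU7Hr1G074660) and a branched-chain amino acid transaminase (HORVU3Hr1G032400). The 16 genes listed as higher under LN had a median season term of -0.05 at LN and 0.48 at HN, and the 15 listed as lower had 0.24 at LN and -0.19 at HN. Over all genes the medians were -0.00417 at LN and -0.00614 at HN. Both lists were chosen for LN against HN on these same samples, so their medians are not independent evidence. How far M5_LN_3 and M5_HN_3, the only M5 spring libraries, carry these medians was not tested.

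The carbon and amino acid genes ranged widely in level. Phosphoenolpyruvate carboxylase 3 (HORVU7Hr1G080510), which fixes bicarbonate into oxaloacetate and so supplies carbon skeletons for amino acids, had 341 CPM in GP_LN_3, 634 in GP_HN_4, 181 in M4_LN_3, 493.2 in M4_LN_4, 521 in M4_HN_4, 415 in M5_LN_3 and 685 in M5_HN_3, against 183 to 711 CPM (median 419) in autumn. The seasons overlapped across that whole range, and the log2 fold change was 0.34 (95% interval -0.07 to 0.75). The Protein of unknown function DUF1230 (HORVU3Hr1G050080) had 237 to 575 CPM (median 328) in spring and 177 to 576 CPM (median 288) in autumn, with 0.00560 (-0.27 to 0.28).

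In lysine metabolism, dihydrodipicolinate reductase (HORVU4Hr1G086020), an enzyme of lysine synthesis, had 27.9 to 46.98 CPM (median 32.2) in spring and 30.2 to 57.7 CPM (median 31.4) in autumn, with a log2 fold change of -0.05 (95% interval -0.22 to 0.12), one of the narrowest among the named genes. Lysine histidine transporter 1 (HORVU7Hr1G074660), which carries amino acids into cells, had 25.2 to 106 CPM (median 69.0) in spring and 18.8 to 109 CPM (median 68.6) in autumn, with -0.00419 (-0.56 to 0.55). The 7 genes had a median of 0.19, with 4 higher and 3 lower.

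Isopropylmalate dehydrogenase acts in leucine synthesis. HORVU3Hr1G059060, the more abundant of the 2 copies named here, had 589 to 1004 CPM (median 768) in spring and 569 to 909 CPM (median 677) in autumn, with a log2 fold change of 0.12 (95% interval -0.07 to 0.32). HORVU2Hr1G124400 had 66.5 to 136 CPM (median 116) in spring and 56.9 to 144 CPM (median 110) in autumn, with 0.07 (-0.11 to 0.26). Pooled over the groups, the seasons overlapped in both. Within genotypes, HORVU2Hr1G124400 was higher in every spring library than in every autumn library in GP and in M4, while its term in M5 was -0.17. HORVU3Hr1G059060 was separate in that direction in GP only. Such separation held for 16.6% of all genes in GP and 7.67% in M4. In the fit 6 of the 9 branched-chain amino acid genes were higher in spring, beside 9127 of all 18952 genes, with a median of 0.08.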

How the data were processed

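RNA was sequenced as single reads from stranded mRNA libraries of barley leaves, and for each of the 18 libraries the authors deposited a table of raw read counts per gene. By the study's methods the reads were trimmed with Trimmomatic, cleared of ribosomal reads with SortMeRNA and mapped with STAR to the barley IBSC assembly. Each table gives counts regardless of strand, on the forward and on the reverse strand, and the reverse column was used. The 4 summary lines that name no gene were kept out of library sizes and tests, which left 76.3% to 77.7% of reads on genes. Genes near-identical to others can lose reads to multiple mapping, at 14.9% to 16.7% of reads.

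Genes above 1 CPM in at least 3 of the 16 libraries were kept, scaled by TMM and fitted with the 6 genotype-by-nitrate groups and season by edgeR 4.0.16 (quasi-likelihood test) in R 4.3.3, with DESeq2 1.42.0 and limma 3.58.1 as alternatives and Benjamini-Hochberg adjustment over all genes. Season terms by genotype, by nitrate level and by harvest came from fits of the same libraries. By the labels each replicate number is 1 harvest day in the fitted libraries, so libraries with the same number share a day. Of 25 such pairs from different groups, 5 had deviations from their group means correlated above 0.1 (median -0.0339), beside 22 of 81 pairs with different numbers (median 0.00311). Library measures were tested by exact permutation within groups. The scripts were tested on simulated counts. Alternatives changed the test, scaling, low-count filter, strand, libraries, the nitrate level of M4_HN_4 and the replicate block. Intervals are 95% intervals of the fit, and p-values measure only the spread between these libraries. CPM depend on transcript length and compare libraries, not genes.

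The members (the spring and autumn libraries), the gene lists and the genes singled out were chosen with earlier results of these data known. Named genes are the 2 most abundant of each role list and any member called (0), and the others are marked as chosen afterwards. Gene products came from the study's own annotation, since the identifiers matched no entry of the reference table used here, and no sequences are shown.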

Additional observations from a re-analysis of the deposited data

Results flagged for a closer look

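Among 68 sets of values, the 7 spring or the 9 autumn libraries for each library measure and named gene, 7 had 1 library far from the rest. Chance gives about 1 in 20 for samples of 1 group, but each set here pools 6 groups of different genotype and nitrate level, so that rate is no reference and a library may stand apart as its group does. In autumn, M5_LN_2 was the shallowest library, with 15.3 M (mega) reads in all, against 22.3 to 29.1 M in the other 8, and with 11.8 M on genes, against 17.2 to 22.3 M. RAD-like 1 (HORVU1Hr1G089490) had 12.5 CPM in M5_LN_1 and at most 5.396 CPM in the other autumn libraries. The bHLH protein HORVU3Hr1G108680 had 312 CPM in GP_HN_2 and at most 150 CPM in the others. In spring, the DUF1230 protein (HORVU3Hr1G050080) had 575 CPM in M5_HN_3, against 237 to 361 CPM, while the autumn libraries of the same group had 455 and 492 CPM. The nitrate transporter HvNRT2.10 (HORVU7Hr1G098550) had 35.9 CPM in M4_LN_3, against 3.69 to 8.98 CPM. Eukaryotic release factor 1-2 (HORVU1Hr1G057880) had 206 CPM in GP_LN_3 and 0 to 11.6 CPM in the other spring libraries, and its fitted log2 fold change of 1.13 had a 95% interval of -0.92 to 3.18 and was -0.0157 without that library.

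The 2 libraries left out of the comparison carried reads of other genotypes. In GP_HN_1, 13 of 16 genes nearly confined to M4 were above 1 CPM, at 16.4% of their summed level in M4. In GP_LN_1, 17 of 20 genes nearly confined to M5 were above 1 CPM, at 45.8% of their summed level in M5.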

How the results depend on the processing

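The quasi-likelihood test called 0 genes in every season comparison, and the counts depended on the test. The likelihood ratio test called 7 genes for season, 4 in GP, 16 in M4, 1 in M5, 2 for the genotype difference, 33 at LN, 15 at HN, 58 for the difference between LN and HN, 3 between the spring harvests, 8 between the autumn harvests and 4 shifted in all 3 genotypes. DESeq2 called 8, 2, 11, 4, 1, 53, 11 and 58 genes in the first 8 of these, 0 between the spring and 41 between the autumn harvests, and limma-voom 1 for season, 1 in M4, 2 at LN and 0 elsewhere. Without a low-count filter there were 2 calls for season, 4 in GP, 1 in M4, 1 in M5, 2 for the genotype difference, 8 at LN, 1 at HN, 4 for the difference between LN and HN and 1 shifted in all 3 genotypes. Additive genotype and nitrogen terms gave 2 for season. RLE or upper quartile scaling, filterByExpr, counts on either strand and all 18 libraries gave 0 for season. With M4_HN_4 as LN, chosen after seeing the data for all but the season test, the difference between LN and HN called 4 genes. The cause of these changes was not tested.

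With the replicate block, season called 0 genes by the quasi-likelihood test, 8 by the likelihood ratio test, 5 by DESeq2 and 1 by limma-voom. It was fitted for the season term across genotypes, where it changed no call of the quasi-likelihood test. The numbers follow the harvest days, so the tests between harvests already compare them.

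Leaving out 1 library or harvest at a time, the calls ranged from 0 to 1 for season, 0 to 30 in GP, 0 to 1 in M4, 0 to 106 in M5, 0 to 30 for the genotype difference and 0 to 5 for the difference between LN and HN.

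Fitted log2 fold changes near 0 changed sign. HORVU1Hr1G089500 was -0.212 with the replicate block and -0.115 with limma-voom or additive terms. HORVU1Hr1G089490 was 0.109, HORVU7Hr1G073050 -0.00705 and HORVU3Hr1G050080 -0.0579 with M4_HN_4 as LN, and HORVU3Hr1G050080 was also -0.0140 without a filter and -0.00541 with all 18 libraries. HORVU3Hr1G082580 was 0.0140 with the replicate block, 0.00454 with the likelihood ratio test, 0.00839 with DESeq2, 0.000253 with RLE scaling, 0.0168 with all 18 libraries and 0.180 with additive terms. HORVU7Hr1G074660 was 0.00336 with the replicate block and 0.00278 with DESeq2, HORVU4Hr1G086020 0.0972 on either strand, HORVU2Hr1G124400 -0.0600 with all 18 libraries, and HORVU5Hr1G062290 -0.246 with limma-voom.

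Of 24 named genes, 12 kept their sign whichever library or harvest was left out. The others ranged from -0.0236 to 0.532 (HORVU5Hr1G047730), -1.03 to 0.706 (HORVU1Hr1G089500), -0.890 to 0.362 (HORVU1Hr1G089490), -0.159 to 0.285 (HORVU3Hr1G082580), -0.167 to 0.447 (HORVU1Hr1G017700), -0.190 to 0.294 (HORVU7Hr1G073050), -0.112 to 0.244 (HORVU3Hr1G050080), -0.340 to 0.246 (HORVU7Hr1G074660), -0.127 to 0.0663 (HORVU4Hr1G086020), -0.710 to 0.220 (HORVU7Hr1G098550), -0.397 to 0.621 (HORVU5Hr1G062290) and -0.0157 to 1.85 (HORVU1Hr1G057880, lowest without GP_LN_3).

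Genes with every pair in 1 direction, alternatives chosen after seeing the data, numbered 122 to 371 higher and 77 to 320 lower in spring with 1 of 3 libraries left out. The range depended on the library: without M4_HN_4 and without M5_LN_3, with 8 pairs each, the counts were 122 and 371 higher and 131 and 320 lower. None of these counts was set against a chance rate. With all 18 libraries 4 library measures passed the adjusted threshold: total reads, reads on genes, reads outside genes and genes with reads. The share of reads on genes, 0.0645 percentage points higher in spring, was -0.0924 without M4_HN_4. Depth limits low genes most: a 2-fold difference was resolved for 80.6% of genes at or below 10 CPM.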
